A study of Mus musculus with 6 samples.

Results

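The genes described here encode the Wnt ligands, their receptors and the secreted proteins that raise or dampen Wnt reception at the cell surface. They are 37 genes: 19 Wnt ligands, 12 receptors (10 Frizzled genes, Lrp5 and Lrp6), 4 R-spondins, and Sfrp1 and Sfrp2. An open chromatin interval was counted at one of these genes when the protein-coding gene end nearest to its midpoint, within 100 kb, was an end of that gene. This gave 225 of 91228 intervals in 2iL, 252 of 88810 after 48 h and 275 of 78055 after 96 h. Merged over the 3 lists where they overlapped by at least 1 bp, the intervals formed 366 of 131410 regions, and each of the 37 genes had at least 1 region. Of the 366 regions, 191 lay at ligand genes, 113 at receptor genes and 62 at R-spondin and Sfrp genes.

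ATAC-seq, which uses a transposase to cut and tag accessible DNA, was done on E14 cells, a mouse embryonic stem cell line derived from a blastocyst. The 3 groups were cells kept in 2iL, and cells collected 48 h and 96 h after 2iL was withdrawn, all in N2B27 medium on gelatin. 2iL combines LIF with CHIR99021, an inhibitor of the kinase GSK3, and PD0325901, an inhibitor of the kinase MEK. Each group had 2 samples, A and B, which the labels do not describe as separate cultures, and 1 deposited peak list covers both, so no spread between samples and no test between groups could be had.

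Wnt proteins are secreted, lipid-modified ligands. They bind Frizzled receptors, and together with the co-receptors LRP5 and LRP6 this stops GSK3 and its partners from marking beta-catenin for destruction, so that beta-catenin can act with TCF/LEF factors on target genes. R-spondins strengthen reception by keeping Frizzled proteins at the cell surface, and secreted Frizzled-related proteins (SFRPs) can bind Wnt proteins outside the cell. CHIR99021 acts below the receptors on the same kinase, so 2iL mimics part of a Wnt signal without a ligand.

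The overlap of intervals with promoters showed which starts differed between the lists. The RefSeq promoter table (GRCm38.p6, the assembly also called mm10) held 27 promoters, each of 300 bp, for 24 of the 37 genes. An interval overlapped 24 of them in 2iL, 25 at 48 h and all 27 at 96 h, where the shares over 21263 promoters of protein-coding genes were 62.0%, 64.7% and 63.9%. The 3 promoters gained at 96 h against 2iL were all at ligand genes: the Wnt8b promoter, the middle of 3 Wnt5b promoters and the first of 2 Wnt11 promoters. Over all protein-coding genes, 9.98% of the promoters with no interval in 2iL had one at 96 h. None of the 24 promoters open in 2iL was lost at 96 h, against 3.15% of all such promoters. The 250 bases before each of these 3 starts are printed 5′ to 3′ with every CpG in capitals, and the Wnt4 promoter, which was open in all 3 lists, is set beside them because Wnt4 gained regions far upstream of it. They lie at chr19:44493222-44493471 on the plus strand (Wnt8b), chr6:119467212-119467461 on the minus strand (Wnt5b), chr7:98834862-98835111 on the plus strand (Wnt11) and chr4:137277385-137277634 on the plus strand (Wnt4).
Wnt8b: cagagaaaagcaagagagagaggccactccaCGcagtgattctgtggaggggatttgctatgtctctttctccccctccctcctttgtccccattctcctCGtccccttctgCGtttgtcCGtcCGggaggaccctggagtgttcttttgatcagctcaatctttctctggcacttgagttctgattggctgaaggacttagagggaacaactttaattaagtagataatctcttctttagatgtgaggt
Wnt5b: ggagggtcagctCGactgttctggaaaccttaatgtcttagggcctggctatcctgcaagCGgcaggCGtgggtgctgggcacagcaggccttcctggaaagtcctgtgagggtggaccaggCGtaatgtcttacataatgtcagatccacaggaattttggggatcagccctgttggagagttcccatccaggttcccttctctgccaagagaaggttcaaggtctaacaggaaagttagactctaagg
Wnt11: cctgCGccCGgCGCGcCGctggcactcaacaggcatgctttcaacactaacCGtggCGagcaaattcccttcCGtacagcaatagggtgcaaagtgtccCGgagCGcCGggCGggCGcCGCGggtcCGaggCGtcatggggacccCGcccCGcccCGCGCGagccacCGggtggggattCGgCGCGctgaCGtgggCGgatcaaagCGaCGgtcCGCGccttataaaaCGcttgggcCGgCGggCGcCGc
Wnt4: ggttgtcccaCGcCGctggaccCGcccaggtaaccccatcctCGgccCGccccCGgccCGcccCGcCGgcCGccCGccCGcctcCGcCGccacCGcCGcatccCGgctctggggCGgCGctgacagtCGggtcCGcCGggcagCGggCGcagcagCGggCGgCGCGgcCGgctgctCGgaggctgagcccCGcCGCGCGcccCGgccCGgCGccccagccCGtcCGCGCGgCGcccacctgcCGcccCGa

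The printed stretches held 5 CpGs for Wnt8b, 4 for Wnt5b, 37 for Wnt11 and 44 for Wnt4. The gained promoters were therefore of both kinds, CpG-poor at Wnt8b and Wnt5b and CpG-rich at Wnt11. Counted over the whole 300 bp, the 24 promoters of these genes that were open in all 3 lists had a median of 30.0 CpGs (7 to 58), against 22.0 over the promoters of all protein-coding genes open in all 3 lists. The gained promoters had 4 to 45 CpGs with a median of 6.0, against a median of 8.0 over all gained promoters and 2.0 over promoters open in no list.

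The deposited fold, the authors' enrichment at a summit, was 6.68 for the Wnt8b promoter at 96 h, and no interval overlapped this promoter in 2iL or at 48 h. What the enrichment is taken over is not given in the sources used here. The middle Wnt5b promoter had folds of 4.95 at 48 h and 8.77 at 96 h and none in 2iL. The region over it has the neighbouring gene Fbxl14 as its nearest protein-coding gene end, so it is not among the 366. Another Wnt5b promoter, with folds of 8.07, 7.67 and 11.0, lies under a region assigned to Gm52875. That region is not among the 366 either. The Wnt11 interval at 96 h was weak, with a fold of 2.11, and the second Wnt11 promoter was open in all 3 lists with folds of 6.26, 4.63 and 4.85. Folds rank intervals within a list, and values of different lists are given side by side without a comparison.

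The core letters of TCF/LEF sites, CTTTGAT or CTTTGAA on either strand, occurred in 2 of the 27 promoters, 7.41%, against 7.57% of the promoters of all protein-coding genes. One match lay on the reverse strand of the gained Wnt11 promoter, with its first base 51 bases before the start. The other was in a Wnt5b promoter that was open in all 3 lists. A match describes letters in the window and is no sign of binding.

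**Figure D1:**
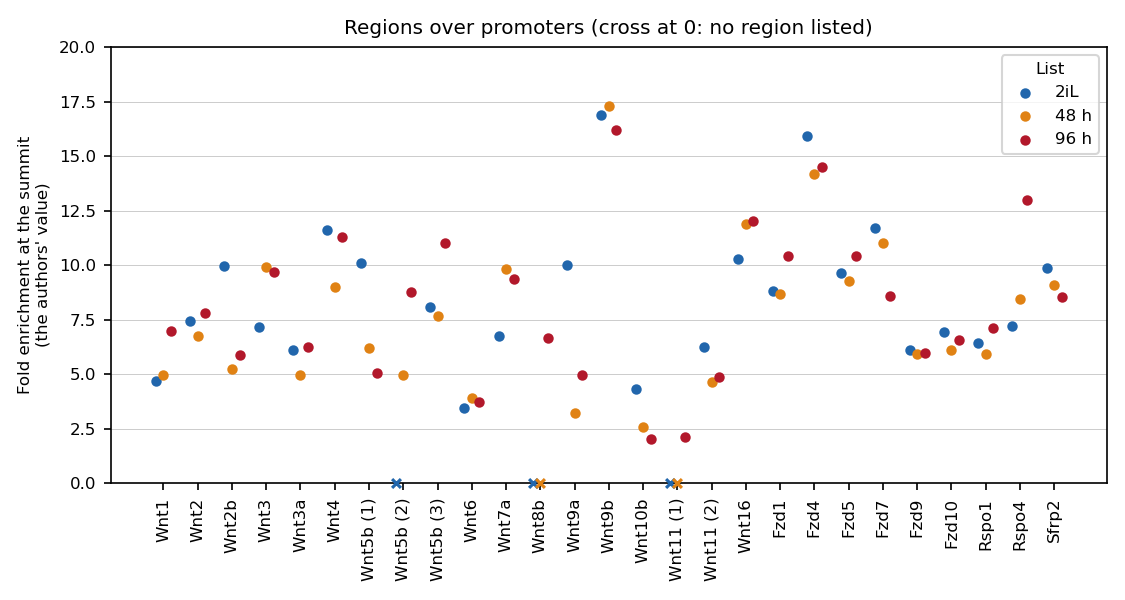
Deposited fold over each of the 27 RefSeq promoters in the 2iL, 48 h and 96 h lists, 1 colour per list, with genes along the x axis and a cross at 0 where a list had no interval. Crosses stand at 3 promoters for 2iL and 2 for 48 h, all at Wnt5b, Wnt8b and Wnt11, and at none for 96 h.

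The lists differed in size and lower limits. The 2iL, 48 h and 96 h lists covered 66.8, 64.5 and 55.6 Mb, with median folds of 8.29, 8.14 and 8.79. Their lowest −log10 p values were 8.53, 7.06 and 3.87. The most frequent background, solved from fold and p with an assumed formula, was 14.2, 15.2 and 14.0 tags. None of the regions lost or gained at the 37 genes had a −log10 p under the lowest value of the list it was missing from. Over all regions at 96 h against 2iL, only 4 of 22031 gained and 0 of 34550 lost did. So low a limit cannot show whether differing thresholds made a region lost or gained. Gene ends did not tell cell types apart. Counts of genes with an interval within 1 kb of an end are given for 2iL, 48 h and 96 h. They were 6, 7 and 7 of 7 embryonic stem cell and 3, 3 and 2 of 4 trophoblast markers. Of the extraembryonic endoderm markers they were 2, 2 and 3 of 4. All 4 formative and primed epiblast markers and all 4 fibroblast markers had one in each list. The shares of all protein-coding genes were 67.6%, 69.7% and 68.0%. Regions at the 7 stem cell markers numbered 85, 85 and 53. Those at 4 formative and primed epiblast markers numbered 25, 50 and 40, those at extraembryonic endoderm markers 18, 23 and 30, those at trophoblast markers 40, 33 and 32, and those at fibroblast markers 30, 31 and 38. The part of a changed cell mixture in any result was not tested, and fewer open cells cannot be told apart from less opening per cell.

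Ligand genes had more open regions after 2iL withdrawal, while the lists as a whole became shorter. The 19 ligand genes had 108 regions in 2iL, 138 at 48 h and 144 at 96 h. Receptor genes had 75, 73 and 76, and R-spondin and Sfrp genes 37, 38 and 45. A region was called lost at 96 h if it was in the 2iL list and had no interval in the 96 h list, and gained in the reverse case.

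At ligand genes, 27 of the 108 regions in 2iL were lost at 96 h, which is 25.0% (exact binomial 95% interval 17.2 to 34.3), against 43.1% of all regions assigned to a protein-coding gene. Of the 144 ligand regions at 96 h, 63 were gained, 43.8% (35.5 to 52.3), against 32.6% of all regions. Both shares of all regions lay outside the ligand intervals, the first above and the second below. Among regions with a fold of at least 5, the ligand loss was 30 of 86, 34.9%, against 43.0% of all regions. That gap is smaller, and no interval was computed for it. These intervals cover counting error only and take neighbouring regions as independent.

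At receptor genes the losses were near the share of all regions. There, 30 of 75 regions had been lost, which is 40% (28.9 to 52.0). The gained regions were 31 of 76, or 40.8% (29.6 to 52.7). Both intervals include the shares of all regions. The 10 Frizzled genes lost 21 of 56 and gained 28 of 63, and Lrp5 and Lrp6 together lost 9 of 19 and gained 3 of 13. At R-spondin and Sfrp genes 12 of 37 were missing at 96 h, 32.4% (18 to 49.8), while 20 of 45 were gained, 44.4% (29.6 to 60), again with intervals that include the shares of all regions.

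**Figure D2:**
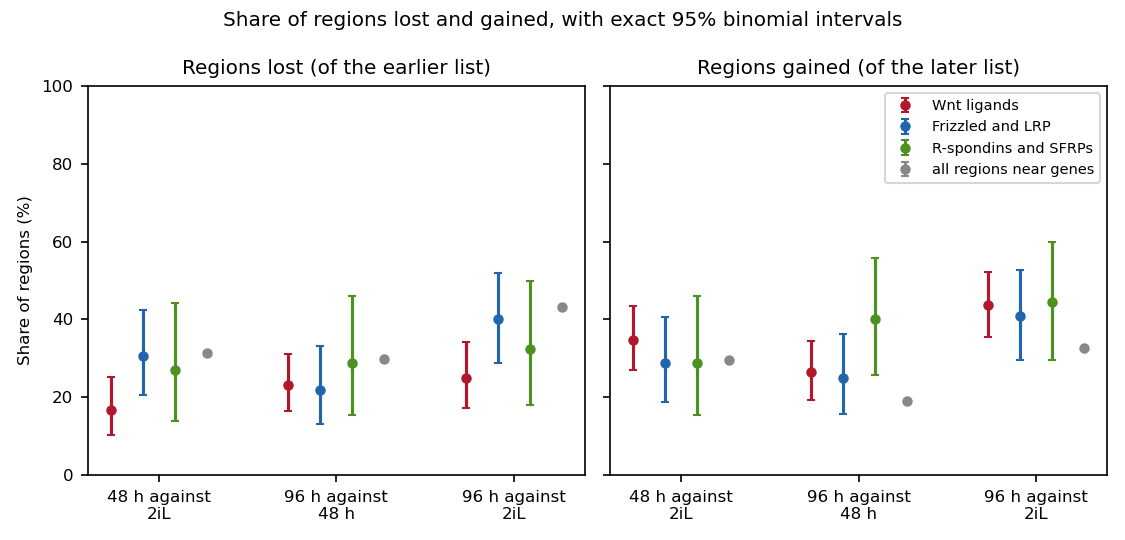
Percent of regions lost (left) and gained (right) at ligand genes, receptor genes and R-spondin and Sfrp genes for each pair of lists, with exact binomial 95% intervals, beside the share of all assigned regions. At 96 h against 2iL, ligand regions were lost at 25.0% and gained at 43.8%, against 43.1% and 32.6% of all regions.

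At 48 h the ligand losses were already below those of all regions. At 48 h against 2iL, 18 of 108 ligand regions were lost, 16.7% (10.2 to 25.1) against 31.4% of all regions. The gained ones were 48 of 138, 34.8% (26.9 to 43.4), an interval that includes the 29.5% of all regions. Among regions with a fold of at least 5, the ligand loss was 25.6% against 32.3% of all. Receptor genes lost 23 of 75, 30.7%, and gained 21 of 73, 28.8%, both close to all regions. R-spondin and Sfrp genes lost 10 of 37, 27.0%, and gained 11 of 38, 28.9%. Without Sfrp1 they lost 4 of 23, 17.4%, and gained 9 of 28, 32.1%, which is above the 29.5% of all regions. With a gene end within 20 kb the shares were also 17.4% and 32.1%, against 26.6% and 26.2% of all regions.

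From 48 h to 96 h the ligand genes gained 38 of their 144 regions, 26.4% (19.4 to 34.4), against 19% of all regions, and lost 32 of 138, 23.2% (16.4 to 31.1), against 29.7%. With a fold of at least 5, that ligand loss was 30.3% against 28.2% of all regions, which turns the order. Receptor genes gained 19 of 76, 25.0%, and lost 16 of 73, 21.9%. R-spondin and Sfrp genes gained 18 of 45, 40% (25.7 to 55.7), an interval that excludes the 19% of all regions. Of those 18, 9 were at Sfrp1, and without Sfrp1 the share was 9 of 30, 30.0%. R-spondin and Sfrp genes lost 11 of 38, 28.9%, near the 29.7% of all regions. Of the 62 R-spondin and Sfrp regions, 14 were in the 96 h list alone, 22.6% against 9.43% of all regions. Sfrp1 held 6 of these 14.

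Few ligand regions were in the 2iL list alone. Of the 191, 15 were in 2iL only, 12 in 2iL and 48 h, 20 at 48 h only, 28 at 48 h and 96 h, 35 at 96 h only, 3 in 2iL and 96 h, and 78 in all 3 lists. Of the 113 receptor regions, 21 were in 2iL only, 17 at 96 h only and 43 in all 3 lists. Over the 37 genes, 42 of 366 regions, 11.5%, were in 2iL only against 20.2% of all regions, and 66, 18%, were at 96 h only against 9.43%. The share in all 3 lists was 38.8% against 38.2%.

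Over 1 kb from a gene end, ligand genes lost 26 of 96 regions, 27.1%, with an exact interval below the 50.5% of all such regions. They gained 55 of 125 there, 44% (35.1 to 53.2), an interval that includes the 38.6% of all such regions. At this distance the ligand gain was thus not set apart from that of all regions. Receptor genes lost 29 of 61 there, 47.5%. Within 1 kb of an end, 8 of 19 ligand regions at 96 h were gained, 42.1% (20.3 to 66.5) against 11.6% of all such regions, and 1 of 12 was lost, 8.33% against 11.0%. The 8 gained ones had 96 h folds of 3.04 and 2.61 at Wnt5a and 3.56 and 7.71 at Wnt8a. At Wnt8b the folds were 6.68 and 5.74, at Wnt10b 2.06 and at Wnt11 2.11. Those of 3.56 and less were weak, above at most 4.69% of the intervals of that list.

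The median distance of ligand regions to the gene end was 6.3 kb, against 15.6 kb at receptor genes and 11.4 kb over all regions. Of the ligand regions, 46.1% lay inside the gene and 11.0% within 1 kb of an end, against 51.7% and 15.5% of all regions. Inside the gene lay 30.1% of the receptor regions. Widths of the persisting regions differed in both directions. Of the 78 in all 3 lists, 15 were more than 1.5 times wider at 96 h than in 2iL, 19.2% against 10.2% of all such regions, and 5 were narrower by that factor, 6.41% against 8.37%. Of 43 receptor regions, 4 were wider and 7 narrower. Widths depend on each list's threshold.

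Gene by gene, 12 of the 19 ligands had more regions gained than lost at 96 h against 2iL, 5 had more lost and 2 had equal numbers. Over all 18250 genes with a region, 24.5% had more gained and 44.8% more lost, and 5597 genes had equal numbers. The median number of regions per gene was 8.0 at ligands and 4.0 over all genes, and these counts were not adjusted for it. Receptors had 2 genes with more gained, 4 with more lost and 6 with equal numbers. Of the 6 R-spondin and Sfrp genes, 4 had more gained, 0 more lost and 2 equal numbers. Gained regions with no lost one were found at 5 ligands (Wnt1, Wnt7a, Wnt8b, Wnt10a and Wnt10b), at 1 receptor (Fzd2) and at Rspo1 and Rspo4.

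**Figure D3:**
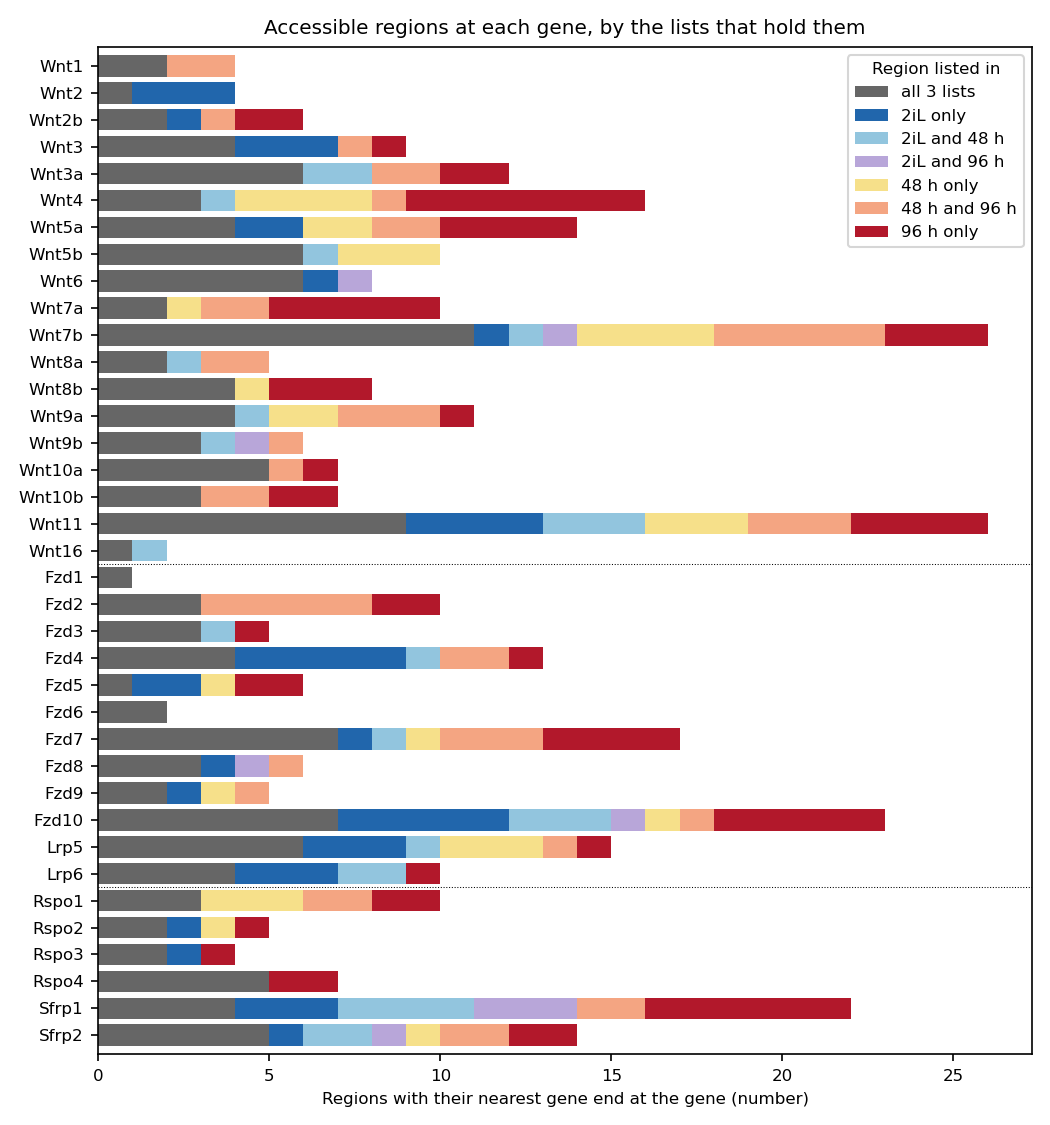
Number of regions at each of the 37 genes, split by the lists they were in. Wnt7b and Wnt11 have 26 regions each, Fzd10 has 23 and Sfrp1 has 22, and Fzd1 has 1.

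Wnt4 (chr4:137277635-137299501, plus strand), a ligand known for its role in kidney and female reproductive tract development, had 4 regions in 2iL, 9 at 48 h and 11 at 96 h. It gained 8 and lost 1 at 96 h against 2iL. Upstream of its start, 6 regions between 49.7 and 93.0 kb away were in the 96 h list alone, with folds of 9.72, 7.68, 7.0, 6.07, 6.07 and 5.46. The promoter printed above was open throughout, with folds of 11.6, 9.01 and 11.3 in the 2iL, 48 h and 96 h lists. Its strongest gained region was inside the gene, 10.3 kb from an end, with folds of 6.46 at 48 h and 10.9 at 96 h. Between the far regions and the gene, Wnt4 also had 2 regions at 48 h alone, 33.1 and 11.8 kb from the start with folds of 7.23 and 5.5, and another lay at 88.4 kb with a fold of 11.3. The stretch upstream of Wnt4 thus held regions that differed between 48 h and 96 h and 1 region, at 43.0 kb, that was in all 3 lists.

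Wnt7a (chr6:91363981-91411353, minus strand), a ligand of limb and nervous system patterning, had 2, 5 and 9 regions, with 7 gained and 0 lost at 96 h against 2iL. The strongest gained region, 6.3 kb inside the gene from the end at the lower coordinate, had a fold of 11.3 at 96 h and no interval before. Both regions of the 2iL list, at the promoter and 3.74 kb from it, stayed listed, and the promoter region had folds of 8.41, 9.81 and 9.35.

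Wnt7b (chr15:85535437-85581821), closely related to Wnt7a and known for lung and placenta development, had 14, 21 and 20 regions. It gained 8 and lost 2 at 96 h against 2iL, and 9 of its regions at 48 h were absent in 2iL. Its strongest gained region, 20.7 kb inside the gene, had folds of 8.74 at 48 h and 11.4 at 96 h. Its strongest persistent region, 53.0 kb outside the end at the higher coordinate, had folds of 20.6, 17.4 and 17.1. The gained regions lay inside the gene and around both ends, whereas the 4 farthest regions, 44.2 to 72.1 kb beyond the higher coordinate, were in all 3 lists.

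Wnt5a (chr14:28504543-28527448), the ligand best known for signalling without beta-catenin, had 6, 8 and 10 regions, with 6 gained and 2 lost. At the end with the lower coordinate, 3 regions only in the 96 h list lay 0.38, 0.883 and 1.36 kb inside the gene, with weak folds of 3.04, 2.61 and 2.84. A further one 2.15 kb inside had folds of 3.08 at 48 h and 3.22 at 96 h. The regions at 15 and 24.9 kb beyond the other end were in 2iL only, with folds of 8.81 and 9.08.

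Wnt10b and Wnt1 lie side by side on chromosome 15 with 11.7 kb between them. Wnt1 is the founding mammalian member of the family and acts in the midbrain, and Wnt10b is known from fat, bone and blood. Together they had 5, 9 and 11 regions, of which 6 were gained and 0 lost at 96 h against 2iL, and 5 of the 11 lay between the genes. The strongest gained one, 4.3 kb beyond the higher end of Wnt1, had folds of 4.39 at 48 h and 13.4 at 96 h. The strongest at Wnt10b, 2.57 kb outside it, had 4.9 and 5.42.

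Wnt3a and Wnt9a lie 16.1 kb apart on chromosome 11. Wnt3a is required for mesoderm formation from the primitive streak. The pair had 13, 20 and 18 regions, with 8 gained and 3 lost at 96 h against 2iL, and both genes had gained and lost ones. Wnt3a kept a region 13.8 kb inside the gene with folds of 7.96, 13.4 and 21.3, and a region 8.52 kb inside the gene, between that one and the promoter, with folds of 13.8 in 2iL and 5.36 at 48 h was not listed at 96 h. At Wnt9a a region 16.9 kb beyond the gene had folds of 11.9 at 48 h and 18.2 at 96 h and none in 2iL. The gains and losses at Wnt3a were interleaved along the same gene.

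Wnt11 (chr7:98835084-98854747), a ligand linked to cell movement during gastrulation, had the most regions with Wnt7b, 26, but no net difference: 16 in 2iL, 18 at 48 h and 16 at 96 h. It gained 7 and lost 7 at 96 h against 2iL. The strongest lost one, 26.7 kb upstream of the gene, had a fold of 10.1 in 2iL. The strongest gained one, 50.9 kb upstream, had a fold of 7.7 at 96 h. Upstream of the gene 6 regions were lost at 96 h and 2 were gained.

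Wnt8b, a ligand of forebrain development, had 4, 5 and 7 regions. An interval within 1 kb of either gene end was found at 96 h only, at the promoter and 0.676 kb beyond the other end with folds of 6.68 and 5.74. A region 5.88 kb from the start was strong throughout, with folds of 21.0, 23.1 and 23.6. Wnt8b, Wnt9a, Wnt1, Wnt2b, Wnt8a, Wnt3 and Wnt2 are described because of values seen in single regions or at gene ends, not by the rule that chose the other ligands.

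Other ligands had 1 strong region that differed. At Wnt2b a region 1.3 kb outside the gene had folds of 10.6 at 48 h and 17.8 at 96 h and none in 2iL. At Wnt8a, an early mesoderm ligand, a region 3.99 kb outside the gene had folds of 15.3 in 2iL and 8.47 at 48 h and was not listed at 96 h. At Wnt3, needed for gastrulation, a region 1.02 kb inside the gene had a fold of 13.7 in 2iL only. The last 2 were the strongest lost regions of the family beside that of Wnt3a.

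**Figure D4:**
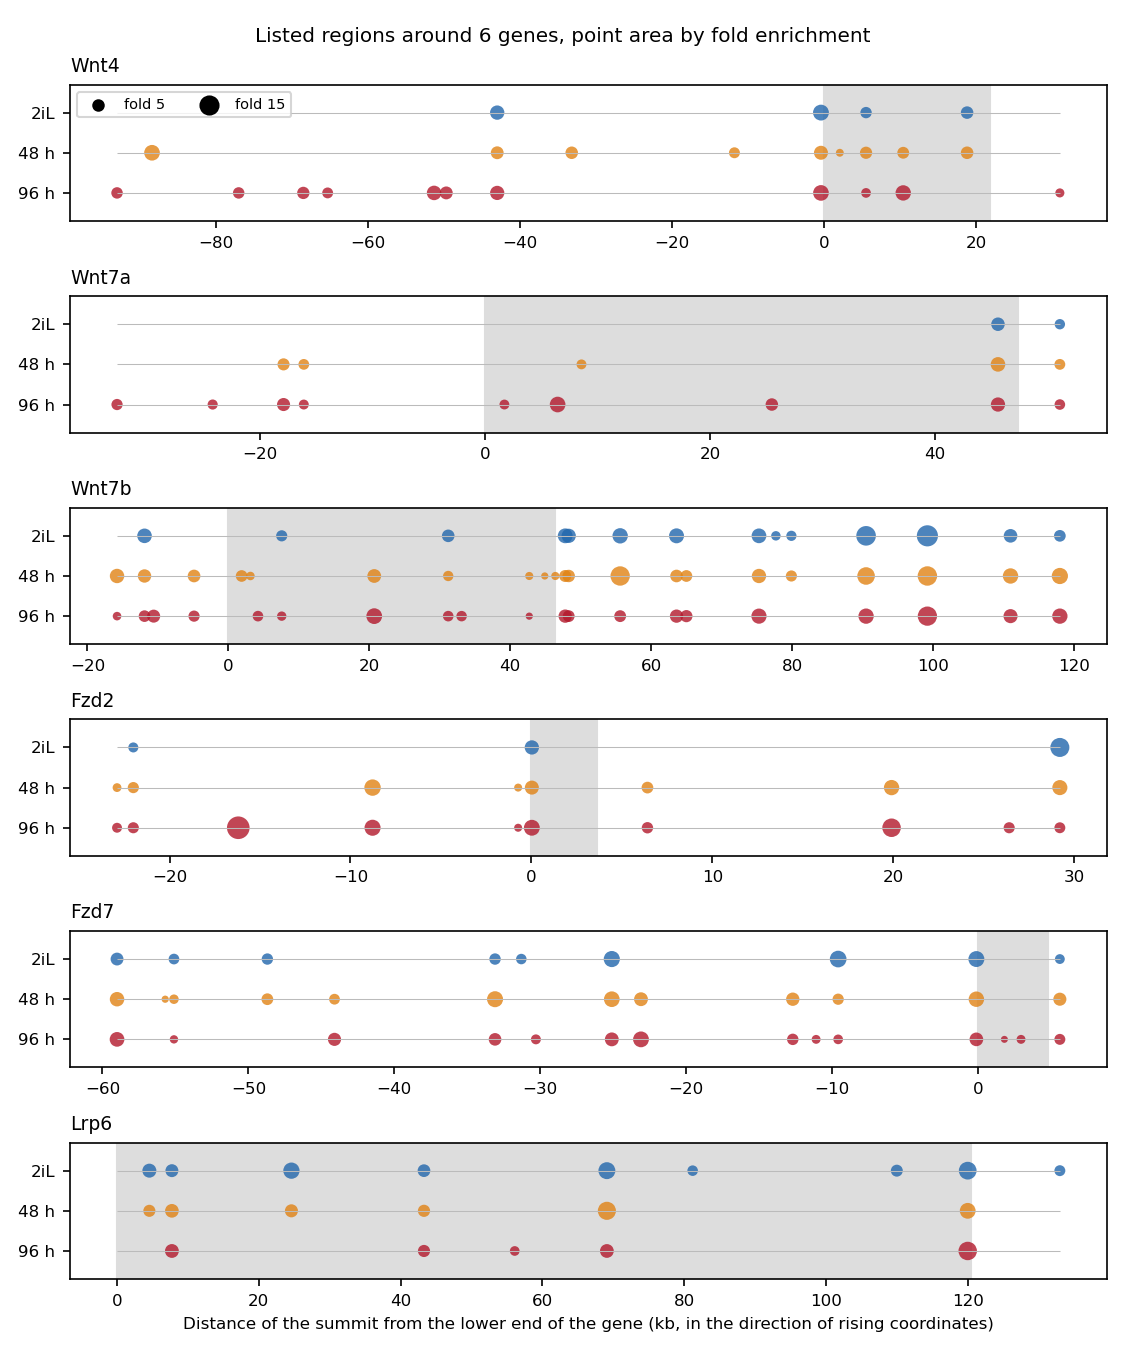
Regions at Wnt4, Wnt7a, Wnt7b, Fzd2, Fzd7 and Lrp6 by distance of the summit in kb from the gene's lower coordinate, with 1 row per list, point area by deposited fold and the gene in grey. Wnt4 shows the 6 regions of the 96 h list alone far from the gene, and Fzd2 shows a region with a fold of 23.6 at 96 h only.

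Region numbers of the remaining ligands differed by 3 or fewer between 2iL and 96 h. Wnt2 had 4, 1 and 1 regions, the one kept being at its promoter. Wnt2b had 3, 3 and 5, Wnt3 had 7, 5 and 6, Wnt5b had 7, 10 and 6, and Wnt6 had 8, 6 and 7. Wnt8a had 3, 5 and 4, Wnt9b had 5 in each list, Wnt10a had 5, 6 and 7, and Wnt16 had 2, 2 and 1. Wnt5b differed most at 48 h, with 3 regions in that list alone.

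A few ligands had an interval at a gene end only after withdrawal. An interval within 1 kb of either end was present at 16, 17 and 19 of the 19 ligands in the 2iL, 48 h and 96 h lists, against 67.6%, 69.7% and 68.0% of all 21887 protein-coding genes. Wnt7b had one from 48 h on, and Wnt8b and Wnt11 at 96 h. The strongest such interval at Wnt7b, with folds of 6.63 at 48 h and 8.19 at 96 h, belonged to a region in all 3 lists. In 2iL the interval of that region, with a fold of 10.1, was 288 bp wide and fell outside the 1 kb. At 48 h and 96 h it was 953 and 984 bp wide. All 12 receptors and all 6 R-spondin and Sfrp genes had one in every list. An open end does not tell whether a gene is transcribed.

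Among receptors, Fzd2 (chr11:102604431-102608058) had 3 regions in 2iL, 8 at 48 h and 10 at 96 h. Of these, 7 were gained and 0 lost at 96 h against 2iL. A region 16.2 kb outside the end at the lower coordinate (chr11:102587850-102588668) had a fold of 23.6 at 96 h, above that of 98.0% of the intervals of that list, and was in neither other list. On the other side of the gene a region at 16.4 kb had folds of 10.8 at 48 h and 15.8 at 96 h. The region over the gene's start coordinate was open throughout, with folds of 9.38, 9.05 and 11.6. Fzd2 was the receptor with the largest net gain.

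Fzd7 (chr1:59482147-59486955, plus strand), a main Frizzled receptor of pluripotent stem cells, had 9, 12 and 14 regions, with 7 gained and 2 lost. Its strongest gained region, 23.2 kb upstream, had folds of 8.83 at 48 h and 11.5 at 96 h. Its promoter region had folds of 11.7, 11.0 and 8.6. Of its regions in all 3 lists, the strongest in 2iL, 9.25 kb upstream, had folds of 12.8, 5.82 and 4.32. The strongest at 48 h lay 33.3 kb upstream with a fold of 11.8 there, and the strongest at 96 h lay 58.9 kb upstream with a fold of 9.95.

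Fzd10 and Fzd4 had more lost than gained regions. Fzd10 had 16, 12 and 14 regions, with 6 gained and 8 lost at 96 h against 2iL. Its strongest gained region, 76.3 kb upstream, had folds of 13.3 at 48 h and 15.5 at 96 h, and its strongest lost one had 9.54 in 2iL and 5.63 at 48 h. Fzd4, also the receptor for the ligand norrin in retinal vessels, had 10, 7 and 7 regions, with 3 gained and 6 lost. At Fzd4 the region 0.435 kb beyond the gene, with a fold of 9.67, and 4 regions between 62.1 and 97.3 kb upstream were in 2iL only, whereas a region 24.4 kb beyond the gene had folds of 12.9 at 48 h and 14.3 at 96 h. The promoters of both genes were open in all 3 lists.

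The co-receptors had fewer regions at 96 h than in 2iL, as did the lists as a whole. Together they lost 9 of 19, 47.4% (24.4 to 71.1), and gained 3 of 13, 23.1% (5.04 to 53.8). These intervals include the 43.1% lost and 32.6% gained of all regions. Lrp6 (chr6:134446476-134566913) had 9, 6 and 5, with 1 gained and 5 lost. The region at its end had folds of 14.5, 11.5 and 15.7. Its strongest lost region, 24.5 kb inside the gene, had folds of 12.2 in 2iL and 7.85 at 48 h. Lrp5 had 10, 11 and 8, with 2 gained and 4 lost, and a region 39.4 kb inside the gene had folds of 12.0, 13.1 and 15.9. Of the Lrp5 regions in all 3 lists, it was the strongest at 48 h and 96 h, and one 1.69 kb inside was the strongest in 2iL, with a fold of 12.9. Of the other Frizzled genes, Fzd1 had 1 region and Fzd6 had 2, all in every list. Fzd3 had 4 in each list, Fzd5 had 3, 2 and 3, Fzd8 had 5, 4 and 5, and Fzd9 had 3, 4 and 3. These 6 genes had no net difference between 96 h and 2iL.

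Rspo1, an R-spondin of ovary development, had 3, 8 and 7 regions, with 4 gained and 0 lost at 96 h against 2iL. Its gained regions were inside the gene or within 1 kb of its end, and the strongest, 1.63 kb from that end, had folds of 7.97 at 48 h and 10 at 96 h. Rspo4, the R-spondin of nail development, kept all 5 of its 2iL regions and gained 2, at 43.2 and 34.1 kb upstream with folds of 7.54 and 5.94 at 96 h. Its region 7.89 kb inside the gene had folds of 20.1, 18.1 and 23.4. Rspo2 had 3 regions in each list and Rspo3 had 3, 2 and 3.

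Sfrp1 and Sfrp2 changed in both directions. Sfrp1 had 14, 10 and 15 regions, with 8 gained and 7 lost at 96 h against 2iL. It held 3 of the 9 regions that were in 2iL and at 96 h but missing at 48 h, among them one 20.8 kb beyond the gene with folds of 21.5 in 2iL and 10.1 at 96 h. Sfrp2 had 9, 10 and 10 regions, with 4 gained and 3 lost. A region 23.7 kb beyond Sfrp2 had folds of 18.4, 26.7 and 31.2, the highest at any of the 37 genes at 96 h.

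Other genes of the pathway had fewer regions at 96 h than in 2iL. At 43 of them, from secretion to the nucleus, regions numbered 376 in 2iL, 337 at 48 h and 300 at 96 h. Of these, 179 of 376 were lost at 96 h against 2iL, 47.6% (42.5 to 52.8), whereas 103 of 300 had been gained, 34.3% (29.0 to 40), beside 43.1% and 32.6% of all regions. Both intervals include the shares of all regions. Of the 43 genes, 41 had an interval within 1 kb of an end in each list. The shares of all protein-coding genes were 67.6%, 69.7% and 68.0%. The list was drawn up with earlier results of these data known, and no difference between it and the ligand genes was tested.

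Within it, Wls, which carries Wnt proteins to the cell surface, had 2, 5 and 6 regions, and Lgr6, a receptor for R-spondins, had 10, 16 and 15. Both had 0 lost at 96 h against 2iL. Gsk3b, the kinase that CHIR99021 inhibits, had 18, 11 and 6 regions, with 2 gained and 14 lost. The 8 nuclear genes lost 60 of 126 regions, among them Tcf7l1, a repressor of the pathway in embryonic stem cells, which had 32, 20 and 19. The 10 cytoplasmic genes lost 46 of 86. The shares were 47.6% (38.7 to 56.7) at nuclear and 53.5% (42.4 to 64.3) at cytoplasmic genes, and both intervals include the 43.1% of all regions. The genes and groups singled out here were named after their values were seen.

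The distance limit cut off few regions. The farthest counted ones were at Fzd4, 95.7 and 97.33 kb away, and at Wnt4, 92.95 kb away, with folds of 8.81, 6.47 and 6.07. The nearest uncounted ones were at Fzd1, Fzd8 and Wnt4, 102.5, 104.2 and 112.9 kb away, with folds of 9.34, 10.8 and 14.9. In all, 25 regions had an end of one of the 37 genes as nearest but lay beyond 100 kb. A region nearest to a gene need not act on it.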

How the data were processed

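The submitters' processing notes list Picard, SAMtools, BWA, bcl2fastq 2.20.0.422 and build mm10, with no role for each. The effect of peak caller, read shifting and duplicate handling (not given in the sources used here) is unknown. The authors deposited 1 peak list per group, for samples A and B together, so depth per sample is unknown and 0 columns per sample remained unused. The deposited values are a score, a fold (a linear ratio) and p values as −log10 p, all the authors' own. A score of 540 to 1000 was not used further. Summits of an interval were reduced to the one with the highest −log10 p. Intervals were merged at 1 bp of overlap, and each region took the gene of its strongest interval from the RefSeq table of GRCm38.p6, which has no strand or exons (strand is known for genes in the promoter table). Background tags were solved from fold and p with an assumed Poisson formula, and the most frequent value of each list is given. Python 3.11.15, pandas 2.3.3 and scipy 1.17.1 were used. Merging and lost calls were tested on the 2iL list against a copy with intervals removed at random and shifted. The nearest gene end was checked by direct search, and the other steps were not tested in this way. The text describes, per role, the genes with the most regions and with the largest net difference, with the strongest region of each class. Members and gene lists were chosen with earlier results of these data known. Without a genome, sequences of regions were not used here.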

Additional observations from a re-analysis of the deposited data

How the results depend on the processing

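No paired analysis was possible because each group has 1 deposited list for both samples, so no sample could be left out either. The 18 shares (3 gene groups, 3 pairs of lists, lost and gained) were recomputed with lists of equal length, a fold of at least 5, a gene end within 20 kb, at least 50% overlap and assignment by summit, and, chosen after seeing the data, without the gene with the most regions (Wnt11, Fzd10 or Sfrp1). Of 108 values, 106 stayed within the main exact interval. The other 2 came with a fold of at least 5: ligand regions lost were 34.9% at 96 h against 2iL and 25.6% at 48 h against 2iL, where all regions gave 43.0% and 32.3%. In 11 values, of 7 shares, a group moved to the other side of all regions. At a fold of at least 5 these included ligand regions lost at 96 h against 48 h, 30.3% against 28.2%, and receptor regions lost at 96 h against 2iL, 46.9% against 43.0%. The cause was not tested. Ligand shares at 96 h against 2iL ranged from 20.9% to 34.9% lost and from 42.9% to 50% gained. With no counts per sample, weak regions near a list's limit cannot be told from absent ones.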
